A study of Mus musculus with 45 samples.

Results

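The 10 genes described here were Nfe2l2, which encodes the transcription factor NRF2, its inhibitor Keap1, and 8 genes of antioxidant defence that NRF2 is known to switch on: Gclc, Gclm, Slc7a11, Gsr, Txnrd1, Srxn1, Nqo1 and Hmox1. They were chosen by gene symbol with 1 comparison of these data already known, DW16 against DC16, in which a probe set of Txnrd1 stood among the large rises, so that comparison is given as a description only. All 10 genes were on the array, through 21 of its 45037 probe sets, and each of the 21 was annotated to a single gene symbol. The arrays read RNA of adipocytes isolated from the parametrial and periovarian fat of 45 female C57BL/6 mice, 1 array a mouse. All mice were ApoE-/-, so no group had an intact ApoE gene. The 26 D mice were IR+/- IRS1+/- ApoE-/-, which means that they carried in addition 1 deleted copy each of the insulin receptor and of insulin receptor substrate 1, and the 19 E mice were ApoE-/- alone. Mice started chow or a high-fat Western diet at 8 weeks of age. D mice on chow for 8 weeks formed DC8 (n = 7), D mice on Western diet for 8 weeks DW8 (n = 5), D mice on chow for 16 weeks DC16 (n = 5) and D mice on Western diet for 16 weeks DW16 (n = 9). E mice on Western diet formed EW8 (n = 6) and EW16 (n = 8), and E mice on chow for 16 weeks EC16 (n = 5); no E mice on chow for 8 weeks were analysed here.

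NRF2 is held in the cytoplasm by KEAP1 and broken down until oxidants or reactive chemicals modify KEAP1; it then enters the nucleus, pairs with small MAF proteins and binds antioxidant response elements near its target genes. The targets make and recycle glutathione, reduce thioredoxin and peroxiredoxins, and detoxify quinones and haem. BACH1, a haem-sensing repressor, competes for the same elements and is known above all for holding down Hmox1. NRF2 activity is set largely at the level of the protein, so that the mRNA of Nfe2l2 itself need not follow it. Fat cells use these pathways during lipid storage and under the oxidant load of obesity.

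The antioxidant response element was searched for in the promoter windows of RefSeq (build GRCm38.p6), because it is the DNA word that links the target genes to NRF2. Its core was taken as TGACNNNGC on either strand, and the related AP-1 type word as TGACTCA or TGAGTCA; the 2 searches could overlap where TGACTCA was followed by GC. In the 250 bases before the start, 3338 of 32851 windows of all genes (10.2%) held the core and 1466 (4.46%) the AP-1 type word. Of the 10 genes, 7 had a window (Txnrd1 had 3, for 3 starts), and Gclc, Gsr and Hmox1 are named only. The core stood in 3 of the 9 windows, those of Nfe2l2, Gclm and 1 of the starts of Txnrd1, and the AP-1 type word stood in the window of Srxn1 at 2 places. The windows of Gclm, Srxn1 and Txnrd1 are shown because results below turn on these genes, with the matched letters in capitals; on the strand shown the core of Gclm and of Txnrd1 reads in reverse. A match is a description of letters, not a measured binding site.
Gclm, chr3:122245307-122245556, plus strand: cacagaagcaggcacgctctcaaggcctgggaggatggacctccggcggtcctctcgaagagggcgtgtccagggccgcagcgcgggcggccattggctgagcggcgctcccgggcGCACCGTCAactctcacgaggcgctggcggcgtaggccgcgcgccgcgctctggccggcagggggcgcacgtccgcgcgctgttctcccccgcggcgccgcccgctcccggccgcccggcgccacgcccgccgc
Srxn1, chr2:152105274-152105523, plus strand: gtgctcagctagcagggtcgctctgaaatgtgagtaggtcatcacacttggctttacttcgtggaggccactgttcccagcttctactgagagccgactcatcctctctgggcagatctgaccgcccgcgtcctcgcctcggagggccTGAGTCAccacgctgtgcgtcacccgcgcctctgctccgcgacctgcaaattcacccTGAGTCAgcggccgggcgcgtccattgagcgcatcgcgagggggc
Txnrd1, chr10:82858956-82859205, plus strand: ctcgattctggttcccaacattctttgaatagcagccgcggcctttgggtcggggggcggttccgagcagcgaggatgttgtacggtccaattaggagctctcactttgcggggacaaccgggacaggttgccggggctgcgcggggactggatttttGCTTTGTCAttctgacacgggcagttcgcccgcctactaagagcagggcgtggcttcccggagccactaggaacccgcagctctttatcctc

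The values were log2 RMA values, that is, log2 of the background-corrected and normalised brightness of a probe set, so that a difference of 1 is a doubling. A difference was called when it had both an adjusted p under 0.01 in limma, a moderated linear model, and a q under 0.01 in SAM, a permutation test, over all 45037 probe sets. Differences are given ± SE and as the first group minus the second. Where nothing more is known of how mice were bred and housed, the p-values measure the spread between these mice. Of the 45 arrays 10 stood apart: DW16 mice 1 to 7 and EW16 mice 1 to 3 had a compressed range, with a 95th percentile of 10.14 to 10.85 against 10.95 to 11.14 on the 35 other arrays, and are called narrow-range arrays below. The tenth of the probe sets with the highest level had a median difference of -0.44 in DW16 against DC16 and -0.28 in EW16 against EC16, and the main differences of the members in the 16-week Western groups are therefore given with and without them; without them 2 DW16 mice (8 and 9) and 5 EW16 mice are left. Adipocyte markers were at the top of the arrays (median percentile of level 99.4 over 12 measured markers, lowest 94.1), mesothelial markers had a median percentile of 67.0 and erythroid markers of 34.8. In RNA from mixed cells, fewer cells of a type and less RNA per cell cannot be told apart.

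Hmox1, which encodes the haem-degrading enzyme haem oxygenase 1, fell under Western diet in E mice by a factor of about 4. Its 1 probe set read 11.25, 11.65, 11.35, 10.83 and 11.91 in the 5 EC16 mice, and from 8.81 to 9.75 with a median of 9.44 in the 8 EW16 mice. Every EW16 mouse lay below every EC16 mouse. The difference was -2.05 ± 0.187, a level 4.13-fold lower (limma, adjusted p = 0.00053), and it was called. The difference was as large in the 5 other EW16 mice alone, at -2.02 ± 0.184 (limma, adjusted p = 0.000534), and over all 8 it was called with each mouse left out in turn (-2.19 to -1.92). After 8 weeks the 5 DW8 mice read 10.72, 10.39, 10.87, 10.66 and 9.12, against 10.87 to 12.15 with a median of 11.57 in DC8. The groups met at 10.87, the highest DW8 and the lowest DC8 mouse, and the difference of -1.28 ± 0.275 was not called (limma, adjusted p = 0.0174). In EW8 the values ran from 9.68 to 11.24 with a median of 10.25, so that EW16 lay 0.96 ± 0.209 lower on the log2 scale than EW8, again not called (limma, adjusted p = 0.014; -0.93 ± 0.225 without the narrow-range arrays, adjusted p = 0.0248). DC16 ran from 10.87 to 11.27 and DW16 from 8.21 to 10.36, a difference of -1.89 ± 0.258, or -1.23 ± 0.236 with only the DW16 mice 8 (9.42) and 9 (10.36). Ordered by mean, the groups were DC8 (11.64), EC16 (11.40), DC16 (11.11), DW8 (10.35), EW8 (10.31), EW16 (9.35) and DW16 (9.22). The 3 chow groups stood highest, and the neighbours DW8 and EW8 differed by 0.04 ± 0.320. DW16 minus EW16 was -0.13 ± 0.226 over all mice and 0.50 ± 0.254 without the narrow-range arrays, so the order of these groups turned with them.

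**Figure D1:**
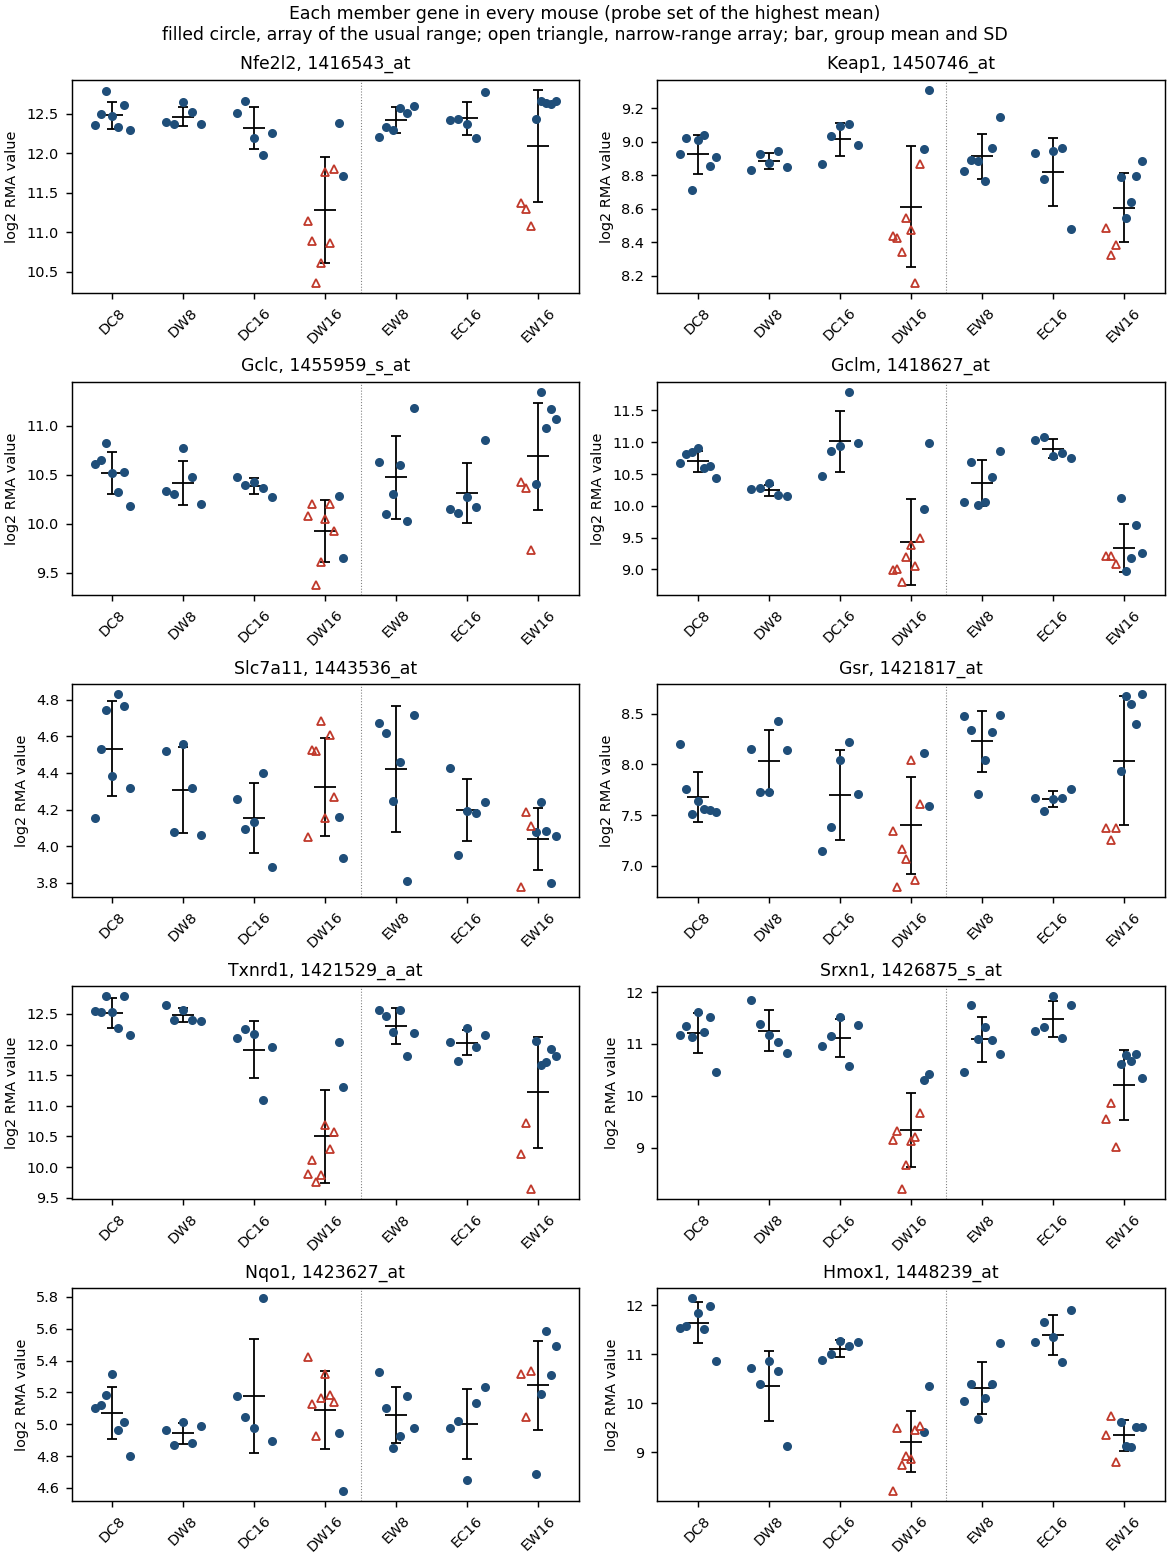
Log2 RMA value (vertical axis) of each member gene in every mouse of the 7 groups (horizontal axis), by the probe set with the highest mean; filled circles are arrays of the usual range, open triangles the 10 narrow-range arrays, and bars the group mean and SD. The 8 EW16 mice lie below the 5 EC16 mice for Hmox1 (8.81 to 9.75 against 10.83 to 11.91) and for Gclm (8.97 to 10.12 against 10.76 to 11.08).

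Of the glutathione genes, Gclm, the modifier subunit of glutamate-cysteine ligase, the enzyme that limits glutathione synthesis, fell in both tested diet comparisons by its probe set 1418627_at. The EC16 mice read 11.04, 11.08, 10.79, 10.84 and 10.76, and the EW16 mice from 8.97 to 10.12 with a median of 9.21. No EW16 mouse reached an EC16 mouse. The difference was -1.56 ± 0.169, a level 2.95-fold lower (limma, adjusted p = 0.00127), -1.46 ± 0.187 without the narrow-range arrays (limma, adjusted p = 0.00163), and over all 8 mice it was called with each mouse left out in turn (-1.67 to -1.51). Gclm was also the 1 member called after 8 weeks in D mice. There the DW8 mice read 10.26, 10.27, 10.36, 10.18 and 10.15, all below the DC8 mice at 10.44 to 10.91 with a median of 10.68, a difference of -0.46 ± 0.0855 or 1.37-fold (limma, adjusted p = 0.00934). That call was lost when 10 of the 12 mice were left out in turn, with differences of -0.50 to -0.42 throughout, and held without DC8 mouse 1 or 7. EW16 was lower than EW8 as well, by -1.02 ± 0.188 (limma, adjusted p = 0.0077), but -0.91 ± 0.218 without the narrow-range arrays was not called (limma, adjusted p = 0.0241), nor was the difference with any single mouse left out other than EW16 mouse 4. In DW16 the values ran from 8.80 to 10.99 with a median of 9.19, against 10.46 to 11.80 in DC16. DW16 mouse 9 (10.99) lay among the DC16 mice, and the difference was -1.58 ± 0.311 over all 9 mice and -0.54 ± 0.362 over mice 8 and 9.

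The second probe set of Gclm, 1439050_at, was 0.45 ± 0.117 lower on the log2 scale in DW8 than in DC8, close to the first one (limma, adjusted p = 0.04, not called). In EW16 it differed by -0.60 ± 0.308 from EC16 (limma, adjusted p = 0.222), and by -0.11 ± 0.154 without the narrow-range arrays. The fall of Gclm in EW16 was thus read by 1 of its 2 probe sets. In the 5 EW16 mice of usual range 1439050_at read 8.89 to 9.76, overlapping EC16 at 9.26 to 9.69. In DW16 it differed by -1.20 ± 0.232 from DC16, and by -0.85 ± 0.218 over DW16 mice 8 and 9.

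Gclc, the catalytic subunit of the same enzyme, was split between its 2 probe sets in EW16. The lower one in level, 1424296_at, read 9.29 to 10.53 with a median of 9.76, below all EC16 mice (10.61, 10.73, 10.60, 10.62 and 10.94), and was called lower at -0.89 ± 0.159 (limma, adjusted p = 0.00533; -0.77 ± 0.154 and still called without the narrow-range arrays). With 1 mouse left out in turn that call was made in 3 of 13 fits, at -0.99 to -0.82. The other, 1455959_s_at, differed by 0.38 ± 0.246, and by 0.68 ± 0.183 without the narrow-range arrays, neither called (limma, adjusted p = 0.326 and 0.0229). Its values in the 5 EW16 mice of usual range were 10.41, 11.35, 10.98, 11.18 and 11.07, and 4 of these lay above all EC16 mice, the highest of which was 10.85. Which transcripts the 2 probe sets read was not tested. After 8 weeks both were within 0.11 of 0 between DW8 and DC8 (-0.10 ± 0.118 and -0.07 ± 0.145).

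Gsr, glutathione reductase, which returns oxidised glutathione to its working form, was the only member called higher in a tested comparison, and only without the narrow-range arrays. By 1421817_at the EC16 mice read 7.66, 7.54, 7.66, 7.66 and 7.76, and the EW16 mice of usual range 7.93, 8.68, 8.59, 8.40 and 8.70. All 5 were above all EC16 mice, a difference of 0.80 ± 0.134 (limma, adjusted p = 0.00357). The 3 narrow-range EW16 arrays read 7.37, 7.25 and 7.37, below EC16, and with them the difference was 0.38 ± 0.264 (limma, adjusted p = 0.353). With them and after a further quantile normalisation it was 0.54 ± 0.207, not called (limma, adjusted p = 0.122). The second probe set, 1421816_at, differed by 0.15 ± 0.196 with these arrays. Without them it differed by 0.42 ± 0.0949, not called (limma, adjusted p = 0.0115). In D mice 1421817_at differed by 0.36 ± 0.142 after 8 weeks (limma, adjusted p = 0.176). After 16 weeks it differed by -0.30 ± 0.238, or 0.15 ± 0.293 over DW16 mice 8 and 9, so that its sign turned there too. Slc7a11, the cystine importer that supplies cysteine for glutathione, read low, from 3.67 to 5.01 over both probe sets and all mice, and neither probe set was called in any tested comparison.

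Of the thioredoxin genes, Srxn1 had a lower mean in EW16 than in EC16 by each of its 4 probe sets. It encodes sulfiredoxin, which reactivates over-oxidised peroxiredoxins. Of these probe sets 3 were called, where 41.1% of all probe sets had a lower mean and 2.39% were called lower. By 1425351_at the EC16 mice read 8.67, 8.64, 9.15, 8.11 and 8.60, and the EW16 mice from 5.66 to 7.52 with a median of 7.34. The difference of -1.65 ± 0.306, or 3.15-fold, was called (limma, adjusted p = 0.00628). It was -1.21 ± 0.151 in the 5 EW16 mice of usual range (7.30 to 7.52; limma, adjusted p = 0.00146), and the 3 narrow-range arrays read 5.66, 6.77 and 6.28. Also called were 1451680_at at -1.07 ± 0.151 (limma, adjusted p = 0.0026) and 1419942_at at -0.85 ± 0.144 (limma, adjusted p = 0.00452), which were -0.98 ± 0.146 and -0.93 ± 0.151 and called without the narrow-range arrays. These calls were less steady than those of Hmox1 and Gclm: with 1 mouse left out in turn, 1425351_at was called in 4 of 13 fits, 1451680_at in 10 and 1419942_at in 9, with no change of sign. The probe set of the highest level, 1426875_s_at, was not called over all 8 mice (-1.27 ± 0.296; limma, adjusted p = 0.0179) and was called at -0.83 ± 0.157 over the 5 of usual range (limma, adjusted p = 0.00553). Control genes moved beside these values. Rplp0 was called lower over all 8 mice, at -0.94 ± 0.162 (limma, adjusted p = 0.00456), which is as large as the differences of Srxn1 1419942_at and Gclc 1424296_at, and without the narrow-range arrays at -0.81 ± 0.143. Actb, at -0.88 ± 0.204, was not called over all 8 (limma, adjusted p = 0.0178) and was called at -0.67 ± 0.131 without those arrays. The 7 control genes had a median of -0.34, or -0.04 without the narrow-range arrays, and their part in the Srxn1 and Gclc values was not tested. After 8 weeks no probe set of Srxn1 was called: the 4 differences between DW8 and DC8 ran from -0.45 to 0.05. In DW16 the 4 probe sets were -2.03 to -0.72 from DC16, and -0.86 to -0.65 over mice 8 and 9.

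Txnrd1, thioredoxin reductase, moved in opposite directions by its probe sets. In DW16, 1421529_a_at read 9.76 to 12.04 with a median of 10.29 against 11.10 to 12.25 in DC16, a difference of -1.41 ± 0.337, whereas 1424486_a_at read 7.32 to 9.99 with a median of 9.00 against 6.52 to 7.15, a difference of 1.88 ± 0.406. The third probe set, 1424487_x_at, was 0.80 ± 0.212 from DC16. Over DW16 mice 8 and 9 alone these differences were -0.24 ± 0.323, 0.54 ± 0.188 and 0.22 ± 0.129. The high values of 1424486_a_at sat mostly on the narrow-range arrays. DW16 mice 1 to 7 read 7.72 to 9.99 and mice 8 and 9 read 7.32 and 7.56, still above all DC16 mice. In EW16 the 3 narrow-range arrays read 8.28, 9.78 and 9.32 and the 5 others 7.21, 6.77, 6.47, 6.57 and 6.40, with no value in between. Against EC16 (6.96 to 7.29) the sign thus depended on these 3 arrays, at 0.48 ± 0.553 with them and -0.44 ± 0.140 without (limma, adjusted p = 0.584 and 0.047, neither called). On the same 10 arrays 1421529_a_at was low, at 9.63 to 10.71, against 11.31 and 12.04 in DW16 mice 8 and 9 and 11.66 to 12.06 in the other EW16 mice.

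In the 8-week groups, which held no narrow-range array, 1424486_a_at read 8.50, 8.16, 8.63, 7.41 and 7.61 in DW8 and 6.75 to 7.76 with a median of 7.23 in DC8. The difference of 0.90 ± 0.220 was not called (limma, adjusted p = 0.0322), and 1421529_a_at differed by -0.04 ± 0.110. EW8 read 7.60 to 8.67 on 1424486_a_at, close to DW8. The 5 EW16 mice of usual range lay below all EW8 mice, by -1.49 ± 0.205, which was not called (limma, adjusted p = 0.0116). The array annotation used here gave no accession for 1424486_a_at and 1424487_x_at, and which transcripts of Txnrd1 they read was not tested.

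**Figure D2:**
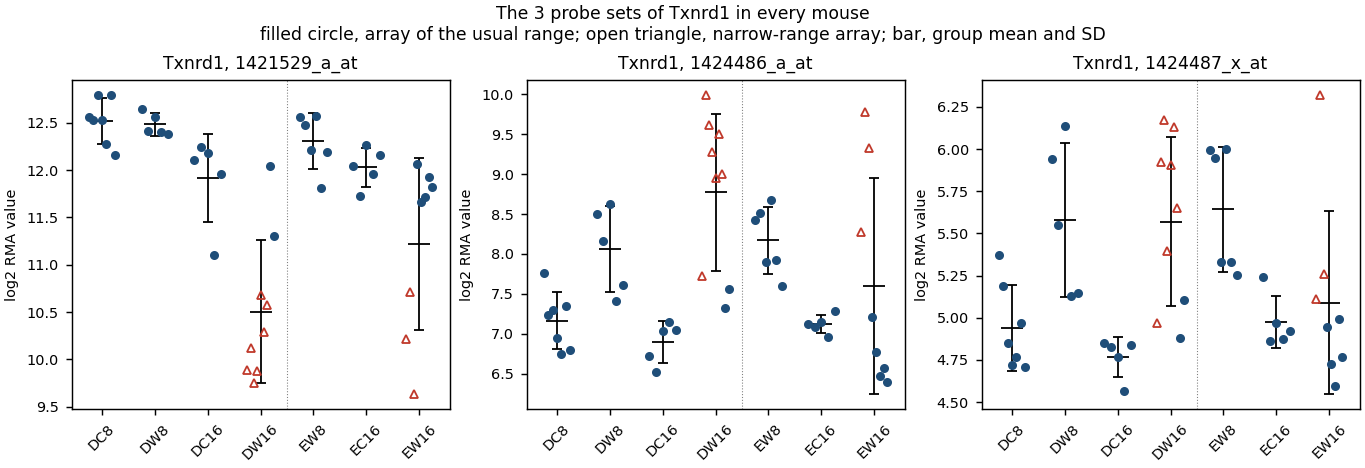
Log2 RMA value (vertical axis) of the 3 Txnrd1 probe sets in every mouse of the 7 groups (horizontal axis); filled circles are arrays of the usual range, open triangles narrow-range arrays, bars group means and SD. On the narrow-range arrays 1421529_a_at is low (9.63 to 10.71) and 1424486_a_at mostly high (7.72 to 9.99), while the 5 other EW16 mice read 6.40 to 7.21 on 1424486_a_at.

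In the main fits Nfe2l2 and Keap1 themselves were not called in any of the comparisons tested, which leave out DW16 against DC16. By 1416543_at Nfe2l2 read 12.30 to 12.79 in DC8, 12.37 to 12.65 in DW8, 12.21 to 12.60 in EW8 and 12.19 to 12.78 in EC16. In EW16 the 5 mice of usual range read 12.44 to 12.66 and the 3 narrow-range arrays 11.08 to 11.37. The difference between EW16 and EC16 was -0.35 ± 0.301 over all mice and 0.16 ± 0.104 without these arrays (limma, adjusted p = 0.458 and 0.294), so its sign turned with them. In DW16 the narrow-range arrays read 10.36 to 11.80, mouse 8 12.38 and mouse 9 11.72, and the difference from DC16 was -1.04 ± 0.284, or -0.27 ± 0.227 over mice 8 and 9. The weaker probe set 1457117_at was among those called in DW16 against DC16, at -1.21 ± 0.203, and not over mice 8 and 9, at -0.67 ± 0.275. Keap1 by 1450746_at lay between 8.16 and 9.31 in all mice, with -0.04 ± 0.0691 between DW8 and DC8 and -0.21 ± 0.118 between EW16 and EC16 (-0.09 ± 0.108 without the narrow-range arrays and 0.01 after a further quantile normalisation). Its weaker probe set 1450747_at differed by -1.01 ± 0.211 in EW16 (limma, adjusted p = 0.0104) and by -0.76 ± 0.177 without the narrow-range arrays (limma, adjusted p = 0.0131), neither called. Over all 8 EW16 mice it passed SAM alone (SAM, q = 0.000667). A Keap1 probe set was also called there under some alternatives, such as median centring and array weights. With moderation by trend a Keap1 probe set was called and Gclc was not. Nqo1, a quinone reductase often used as a readout of NRF2, read 4.58 to 5.79 in all 45 mice by its 1 probe set, below the middle of the array (percentile of level 42.6). The file held no detection calls, and its differences, from -0.13 ± 0.0832 in DW8 to 0.24 ± 0.143 in EW16, were not called.

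Counted over the 21 probe sets, EW16 against EC16 had 6 called, all lower and of 4 genes (Gclc, Gclm, Srxn1 and Hmox1), where 2.66% of all probe sets were called and 2.39% called lower. The median difference of the 21 was -0.56 against 0.06 over all probe sets. The shares and medians over all probe sets include those of low level, so they are not alike in level to the 21. In the tenth of the probe sets with the highest level the median was -0.28. After a further quantile normalisation it was -0.40 for the 21 and 0.02 over all. Without the narrow-range arrays 8 were called, the same 6 with a further probe set of Srxn1 lower and Gsr higher, where 7.02% of all probe sets were called, 3.95% lower and 3.07% higher. The median difference of the 21 was then -0.17, against 0.05 over all. The split of all calls moved with scaling: 10.2% of them were higher in the values as deposited, 36.1% after a further quantile normalisation and 43.8% without the narrow-range arrays. After the further quantile normalisation 5 of the 21 were called, of Gclm, Hmox1 and 3 probe sets of Srxn1. The count of 6 fell to 2, Gclm and Hmox1, without EC16 mouse 1, 2 or 3 and to 3 without EC16 mouse 5, and was 4 to 7 without any other mouse. DW8 against DC8 had 1 called, lower, where 1.08% of all probe sets were called and 0.155% lower, and the median difference was -0.07 against -0.02. EW16 against EW8 had 1 called, lower, where 1.57% of all probe sets were called and 1.43% lower; without the narrow-range arrays 0.02% of all were, 9 probe sets, and none of the 21, of which 13 had an unadjusted p under 0.05 in limma and 4 passed SAM alone. This comparison shares its EW16 mice with EW16 against EC16. In DW16 against DC16, where the members were chosen, 8 were called lower and 1 higher, of all probe sets 3.43% being called and 2.63% lower; without the narrow-range arrays, with 2 DW16 mice left, none of the 21 and 0% of all were, by limma and SAM together.

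**Figure D3:**
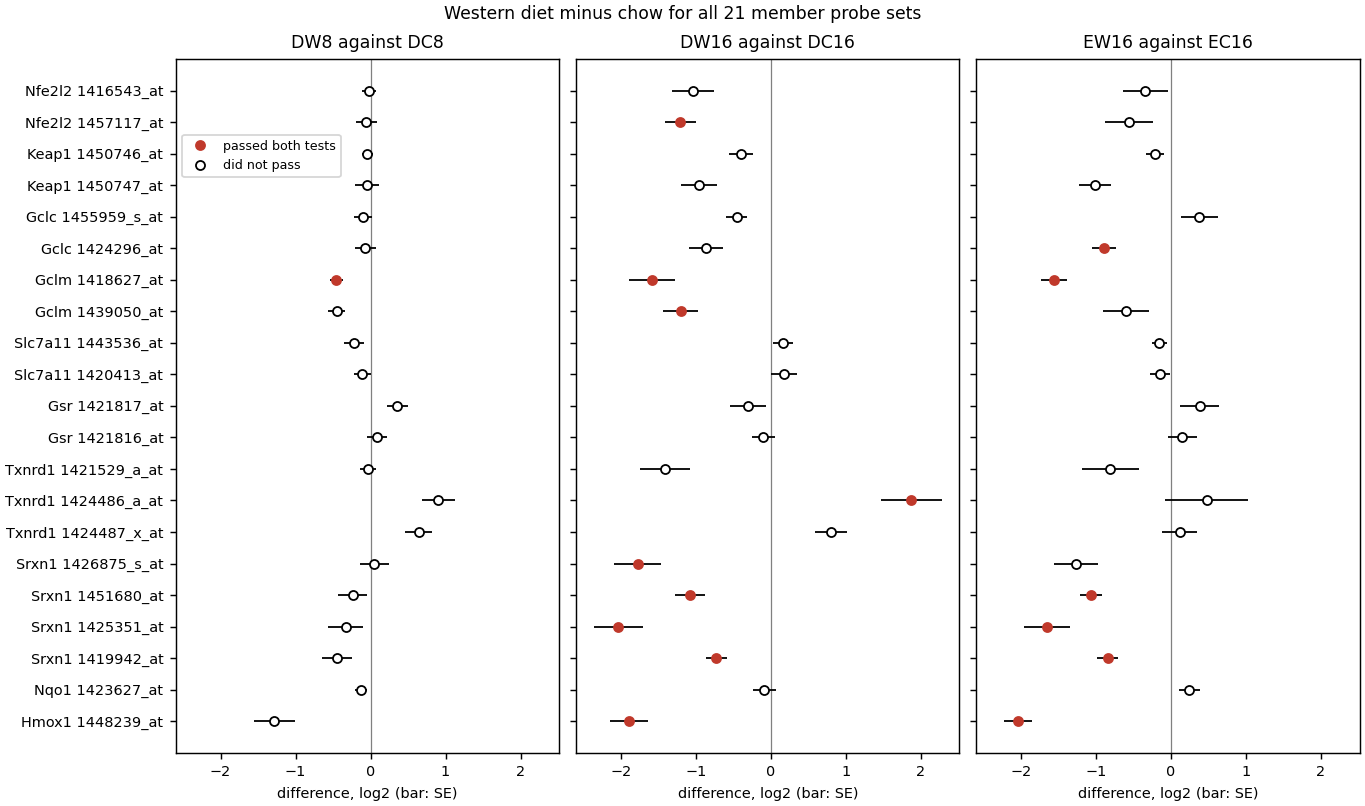
Difference, Western diet minus chow, in log2 units (horizontal axis, bars SE) of the 21 member probe sets (vertical axis) in 3 comparisons; filled points passed both tests, and the DW16 panel is a description because members were chosen on it. In EW16 against EC16 the 6 filled points are all lower, from -2.05 for Hmox1 to -0.85 for Srxn1 1419942_at.

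**Figure D4:**
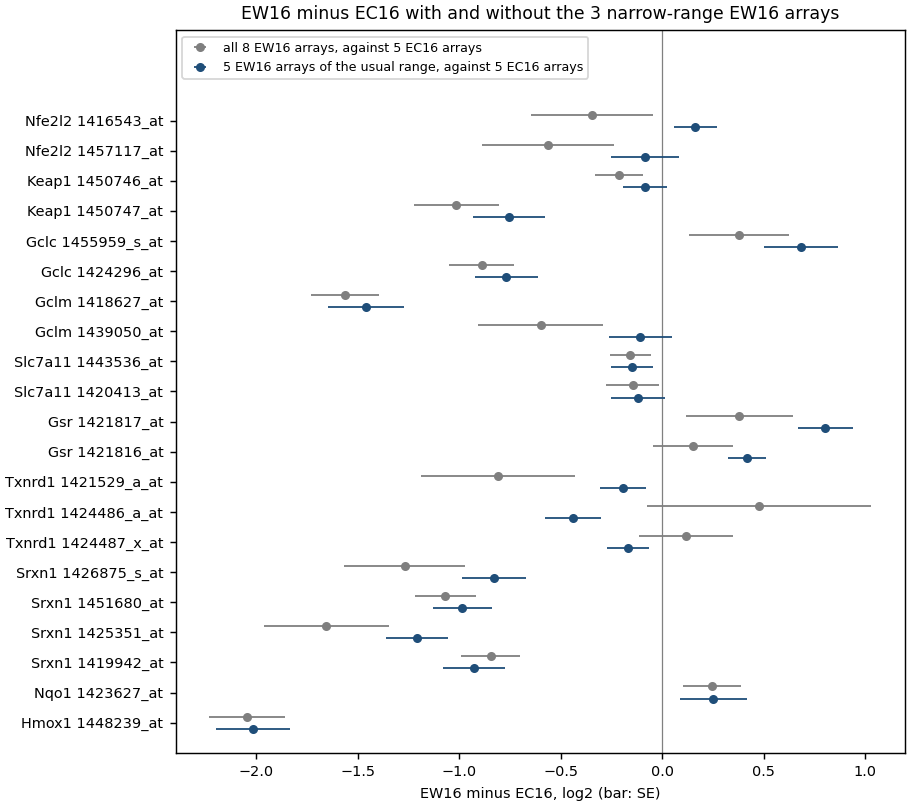
Difference EW16 minus EC16 in log2 units (horizontal axis, bars SE) of the 21 member probe sets (vertical axis) with all 8 EW16 mice (grey) and with the 5 mice of usual range (blue). Hmox1 stays in place (-2.05 and -2.02), whereas Nfe2l2 1416543_at (-0.35 and 0.16) and Txnrd1 1424486_a_at (0.48 and -0.44) change sign.

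No difference between the genotypes passed after 8 weeks of Western diet. Between DW8 and EW8, which share their DW8 mice with the comparison against DC8, none of the 21 was called by limma and SAM together and 0% of all probe sets were. At an unadjusted p under 0.05 in limma there were 1859 of all probe sets and 1 of the 21, Slc7a11 1420413_at (0.20 ± 0.0894), and SAM alone called 4 of all and none of the 21. The 95% intervals of the difference were -0.65 to 0.74 for Hmox1, -0.44 to 0.22 for Gclm 1418627_at, -0.16 to 0.24 for Nfe2l2 1416543_at and -0.65 to 0.44 for Txnrd1 1424486_a_at. At 16 weeks the diet difference in D minus that in E was 0.15 ± 0.336 for Hmox1, -0.02 ± 0.378 for Gclm 1418627_at and 1.40 ± 0.715 for Txnrd1 1424486_a_at, estimates given with no test since they use DW16 and DC16. Of the DW16 arrays 7 of 9 and of the EW16 arrays 3 of 8 were narrow-range. Without them the same estimates were 0.79 ± 0.320, 0.92 ± 0.405 and 0.98 ± 0.243. That is a smaller fall in D for Hmox1 and for Gclm 1418627_at, and it rests on 2 DW16 mice. The other Gclm probe set, 1439050_at, had the opposite sign, at -0.74 ± 0.277 without the narrow-range arrays and -0.60 ± 0.400 with them.

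Around the members, 123 of 136 listed genes of the same pathways were measured, each by its probe set of the highest level. The shares over all probe sets given beside them include probe sets of low level, so these shares are not alike in level. Fitted alone, probe sets above the median level gave 1384 calls in EW16 against EC16, where all gave 1200. They gave 490 in DW8 against DC8 and 962 in EW16 against EW8, where all gave 485 and 706. More calls from fewer probe sets mean that a larger share was called at high level. The shares over all probe sets thus do not show whether the listed genes passed more often than probe sets of like level, which was not tested. In EW16 against EC16, 11 of the listed genes passed, 10 lower and 1 higher, which is 8.94% of the 123. Of all probe sets 2.66% were called, 2.39% lower. The glutathione peroxidases and transferases held 5 of these among 27 measured genes, all lower: Gpx3, a secreted glutathione peroxidase (-1.96 ± 0.366), Gsta3 (-1.12 ± 0.201), Gstm1 (-1.06 ± 0.182), Gpx8 (-0.87 ± 0.158) and Gstm5 (-0.68 ± 0.114). The 5 passed again without the narrow-range arrays, joined by Gpx7, and Gpx3 was then -1.52 ± 0.274. Of 25 other NRF2 targets, Slc48a1, a haem transporter (-1.32 ± 0.238), and Osgin1 (-0.95 ± 0.179) fell and Abcc4, an efflux pump (0.83 ± 0.142), rose, and all 3 passed without the narrow-range arrays as well.

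Of 18 regulators, Mafg, a small MAF partner of NRF2 (-1.27 ± 0.253), and Btrc (-0.53 ± 0.104) passed as lower over all 8 mice and neither passed over the 5 of usual range (-1.19 ± 0.292 and -0.46 ± 0.109). Over those 5 the regulators that passed were Gsk3b, a kinase that marks NRF2 for breakdown (0.83 ± 0.144), and the repressor Bach1 (0.49 ± 0.102), both higher, and Syvn1, a ubiquitin ligase (-0.66 ± 0.128), lower. Pgls of the pentose phosphate pathway, which supplies NADPH, was the 1 of 14 NADPH genes that passed (-1.03 ± 0.0971; without the narrow-range arrays -1.05 ± 0.112). None of 15 glutathione synthesis and recycling genes, 14 thioredoxin and peroxiredoxin genes and 10 superoxide and peroxide enzymes passed over all 8 mice. Over the 5 of usual range Oplah (-1.06 ± 0.221) and Glrx5 (-0.47 ± 0.0994) passed as lower and mitochondrial Prdx3 (1.16 ± 0.215) and Cybb (0.60 ± 0.115) as higher, in all 17 of 123 (13.8%), 12 lower and 5 higher, where 7.02% of all probe sets were called, 3.95% lower and 3.07% higher.

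After 8 weeks in D mice 3 of the 123 passed (2.44%, against 1.08% of all probe sets): the KEAP1 partner Cul3 rose by 0.35 ± 0.0645, and the endoplasmic reticulum peroxiredoxin Prdx4 (-0.52 ± 0.0932) and mitochondrial Txn2 (-0.44 ± 0.0718) fell. In EW16 against EW8, 7 passed, all lower (5.69%, against 1.57% of all probe sets): Mafg, Btrc, Gstm1, Msrb1, Slc48a1, Phgdh and Sod3. Without the narrow-range arrays, where 0.02% of all probe sets were called, none of the 123 passed by limma and SAM together, 52 had an unadjusted p under 0.05 in limma and 20 passed SAM alone, and the 7 differed by -1.27 (Mafg) to -0.68 (Btrc). None passed in DW8 against EW8, where none of all probe sets did.

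**Figure D5:**
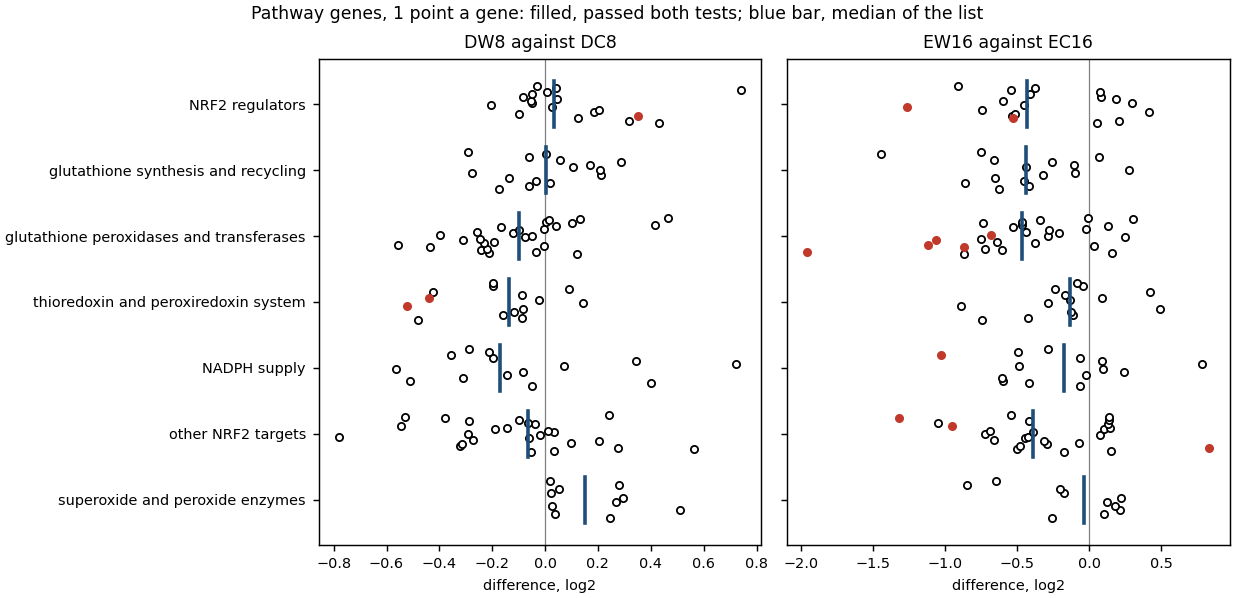
Difference in log2 units (horizontal axis) of the 123 measured pathway genes, 1 point a gene, in 7 lists (vertical axis) for DW8 against DC8 and EW16 against EC16; filled points passed both tests and blue bars are list medians. In EW16 the 5 filled points of the glutathione peroxidases and transferases are all lower, with Gpx3 at -1.96.

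Mesothelial, stromal and endothelial markers had medians lower in EW16 than in EC16, and lymphocyte and erythroid markers had not. Over all probe sets 41.1% were lower, and the tenth of the highest level had a median of -0.28. All 10 mesothelial markers were lower, 3 of them called (Upk3b, Krt19 and Wt1; median -1.10), and their summed level was 9.75 to 10.92 in EW16 against 10.86 to 11.96 in EC16. Stromal markers had a median of -0.61 with 8 of 10 lower and endothelial markers of -0.40 with 10 of 10 lower, none called, and the adipocyte markers themselves had a median of -0.48 with 11 of 12 lower and none called. The stromal sum was 13.70 to 15.11 in EW16 against 15.08 to 15.73 in EC16. Without the narrow-range arrays these medians were -0.41, 0.01 and -0.10, and the stromal sum of the 5 mice was 14.85 to 15.11. Of 15 macrophage markers, a cell type known to express Hmox1, none was called (median -0.06, range -1.48 to 0.84), with a summed level of 13.10 to 15.00 against 13.77 to 14.41. Of the 15, 9 were lower and 6 higher. The most negative were C1qc (-1.48 ± 0.427; limma, adjusted p = 0.0454) and Lyz2 (-0.93 ± 0.306; limma, adjusted p = 0.071), which without the narrow-range arrays were -1.53 ± 0.375 and -0.72 ± 0.161 (limma, adjusted p = 0.0157 and 0.0106). Higher without those arrays were Adgre1 at 0.63 ± 0.175 and Tyrobp at 0.56 ± 0.147 (limma, adjusted p = 0.0272 and 0.0213). So were Csf1r at 0.36 ± 0.142, Fcgr1 at 0.055 ± 0.0797 and Trem2 at 0.002 ± 0.081, and the rest of the macrophage list was lower. Without the narrow-range arrays 1 mesothelial marker (Upk3b) and no macrophage marker was called, with medians of -1.06 and -0.18; the leukocyte gene Ptprc (0.70 ± 0.123) and Lep, leptin (1.57 ± 0.125), were then called higher and Lipe, hormone-sensitive lipase (-0.95 ± 0.183), lower. Over all 8 EW16 mice lymphocyte markers had a median of 0.09 with 7 of 9 higher, and erythroid markers of 0.185 with 4 of 4 higher, none called. The lymphocyte sum was 10.97 to 11.48 in the 5 EW16 mice of usual range, against 10.54 to 10.86 in EC16. The summed control genes ran from 14.64 to 16.09 in EW16 and from 16.08 to 16.14 in EC16. The part of these cells and of the array range in the falls of Hmox1, Gclm and Srxn1 was not tested. No marker of any list was called in DW8 against DC8, where mesothelial markers had a median of -0.28 and macrophage markers of -0.03.

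Over the 35 arrays of usual range, the probe sets of other genes most like Hmox1 in level were Chst8 (Pearson r = 0.865), Baiap2 (0.862) and Tent5c (0.856). Those most like Gclm were Trpt1 (0.919), Zfp771 (0.919) and Rnf166 (0.910), and the one most like Srxn1 was Ssh1 (0.901). For Txnrd1 1421529_a_at they were Egfr (0.908), Cfb (0.869) and Rbl2 (0.831), and for Gsr Eif2s2 (0.894), Psmb2 (0.881) and Ywhaz (0.860). These mice share groups, diets and array scaling, so the values describe likeness over these arrays only.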

How the data were processed

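Adipocyte RNA of each mouse was hybridised by the authors to 1 Affymetrix MG430 2.0 array, and the deposited log2 values were made with RMA (version not given in the sources used here); the file gave no detection calls. The number of arrays limits the precision. Here the members and lists were chosen with earlier results of these data known, as were the narrow-range arrays. Groups were taken from the labels. Of the 45037 probe sets, 34945 had 1 gene symbol, 932 several and 9160 none. Only the groups compared entered each fit (limma 3.58.1 in R 4.3.3, Benjamini-Hochberg over all probe sets, and SAM with 100 permutations, both at 0.01). Each member was described by its probe set of the highest mean and by others that were called or opposed it. From each pathway list the 3 genes with the smallest p were open to naming; Gpx3, Gpx8 and those passing only without the narrow-range arrays were named after their values were seen. Alternatives covered call rule, spread, moderation, weights, scaling, level filter, thresholds, array SD, replicate block, narrow-range arrays and each mouse left out. The fits were tested on simulated data.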

Additional observations from a re-analysis of the deposited data

Results flagged for a closer look

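The single value farthest from its group was tested for the 10 genes in the 7 groups, and 5 of 70 stood apart, where chance alone sets apart about 1 group in 20. Hmox1 in DW8 mouse 5 was 9.12 against 10.39 to 10.87 in the other 4 mice. Txnrd1 1421529_a_at in DC16 mouse 4 was 11.10 against 11.95 to 12.25. Gclc 1455959_s_at in EC16 mouse 5 was 10.85 against 10.11 to 10.27. Gsr 1421817_at in DC8 mouse 1 was 8.20 against 7.51 to 7.75, and Srxn1 1426875_s_at in DC8 mouse 7 was 10.45 against 11.14 to 11.62. No narrow-range array was among the 5.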

How the results depend on the processing

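No member changed sign past the threshold under any alternative tried, and counts of called members moved as follows. DW8 against EW8 gave 0 throughout. EW16 against EC16 (6 called) gave 0 with the replicate block and 0 over the same mice unpaired, the latter chosen after seeing the data, 4 with the array SD or a 2-fold minimum, 5 with further quantile normalisation, 6 with moderation by trend or by limma alone, 7 with median centring or above the median level, 8 by SAM alone, with 1 fit, with weights, at 0.05 or without narrow-range arrays, and 2 to 7 with 1 mouse left out. DW8 against DC8 (1 called) gave 0 with 1 fit of all groups, median centring, a 2-fold minimum, the block or the same mice unpaired, 4 at an adjusted p under 0.05, and 0 to 1 with 1 mouse left out. EW16 against EW8 (1 called) gave 8 by SAM alone, 6 with 1 fit, 4 with array weights, 2 among probe sets above the median level, 5 at 0.05, and 0 with further quantile normalisation, the array SD as covariate, the block, the same mice unpaired or no narrow-range arrays, and 0 to 4 with 1 mouse left out (4 without EW16 mouse 4). DW16 against DC16 (9 called) gave 15 by SAM alone, with weights, at 0.05, with the block and over the same mice unpaired, 14 with 1 fit, 0 with the array SD and without narrow-range arrays, and 1 to 14 with 1 mouse left out (1 without DC16 mouse 1, 2, 3 or 5; 14 and 13 without DW16 mouse 8 or 9). Mice of the same number did not deviate together (correlations -0.343 to 0.319), so the paired fits only share a number. The block and the same mice unpaired kept only mice whose number occurred in both groups. Against DC16 these were DW16 mice 1 to 5, all on narrow-range arrays. Against EC16 they were EW16 mice 1 to 5, of which 1 to 3 were on narrow-range arrays. The part of this selection in the counts was not tested. Calls over all 45037 probe sets moved alike, so these counts do not describe the members alone. For EW16 against EC16 they went from 1200 to 5096 by SAM alone and to 38 without EC16 mouse 2. With the block and over the same mice unpaired they were 0 and 1. For DW16 against DC16 they went from 1545 to 9079 by SAM alone, 8624 with weights and 9598 at 0.05. There the block gave 7741, the same mice unpaired 8782 and the array SD 3. Without DC16 mouse 1, 2, 3 or 5 they were 119, 51, 220 and 123. The array SD is itself lower in the 16-week Western groups, so that covariate and diet cannot be told apart there.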
